A study of Mus musculus with 6 samples.

Results

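The genes described here encode the subunits of the proteasome and the factors that assemble and regulate it. They were chosen by name: array features with exactly 1 gene symbol beginning with Psma, Psmb, Psmc, Psmd, Psme, Psmf or Psmg and a digit, or equal to Pomp. This gave 43 genes, each with 1 feature, out of 14860 genes named in this way among 16755 features. A further 9 genes of the family, Psma4, Psma5, Psma8, Psmb3, Psmb5, Psmd1, Psme2, Psme2b and Psmg4, were not found by this rule and are not analysed here. Of these, Psma4, Psmd1, Psme2 and Psme2b do occur on the array, in features that carry several symbols. Below, a gene is called measured only if it has a feature with exactly 1 symbol. Expression was measured in tibialis anterior, a fast muscle at the front of the lower leg, from 3 ATF4 mKO mice and 3 littermate controls. In ATF4 mKO mice the transcription factor gene Atf4 is deleted in skeletal muscle. All 6 mice were males aged 8 weeks that had been fasted for 24 h, so no fed group was compared. The allele and the promoter behind the deletion are not stated in the labels, and cells other than muscle fibres are expected to keep Atf4. In such bulk samples, fewer cells of a type and less RNA per cell cannot be told apart.

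The proteasome is the cell's main machine for degrading proteins tagged with ubiquitin. Its core particle is a stack of rings: outer rings of alpha subunits that gate the entrance, and inner rings of beta subunits, some of which carry the protease sites. A regulatory particle caps the core. It has a base of ATPases that unfold the substrate, and non-ATPase subunits that bind ubiquitin, remove it and hold the particle together. In fasting muscle this pathway breaks down contractile proteins and frees amino acids. ATF4 is a transcription factor of the amino acid shortage response, and the comparison asked which muscle mRNAs depend on it during a fast.

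Log2 expression values were available for every feature on every array, and correlations between arrays ran from 0.983 to 0.991. Atf4 itself averaged 6.92 ± 0.17 in ATF4 mKO muscle and 8.73 ± 0.06 in control muscle (log2 level, SD, n = 3 each), with no overlap and an adjusted p of 0.00268 in limma. The muscle fibre genes Acta1, Ckm, Mb, Pvalb and Actn3 all lay in the top 10% of features by mean level. Of the 43 proteasome genes, 28 were in that top 10% and 40 lay above the median of all features. The 3 below it were Psma3, Psmb11 and Psmg3. Psmb11 encodes the thymus-specific core subunit, and the values of these 3 genes may lie near the background. ATF4 mKO mouse 3 stood apart for strongly expressed features, being the lowest of the 6 mice at 38.4% of the top 10% and at 18 of the 43 proteasome genes (41.9%). Over all features, its array had the highest median (5.91, against 5.84 to 5.89 in the others). The SD over all features was the lowest there (1.53, against 1.55 to 1.58).

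No proteasome mRNA passed the threshold for a difference between ATF4 mKO and control muscle. The test was limma over all features with Benjamini-Hochberg adjustment and a threshold of 0.05. In limma, 0 of 43 members passed, against 0.0119% of all features, and every member had an adjusted p of 1. At an unadjusted p under 0.05 there was 1 member (2.33%), Psmg2, against 3.09% of all features. That count ran from 0 to 3 over the alternatives tried, with 0 when ATF4 mKO mouse 3 was left out. Values below control were found for 30 of 43 members (69.8%), against 49.4% of all features and 52.8% of the top 10% by level. Of the 28 members in that top 10%, 23 were below control (82.1%), with a median log2 fold change of -0.047. Outside it, 7 of 15 members were below control (46.7%), with a median of 0.013. The median log2 fold change of the members was -0.040, or 97.3% of control. It was 0.0013 over all features and -0.0052 over the top 10%. Leaving out ATF4 mKO mouse 3 brought the members' median to -0.019, with 24 of 43 below control. The groups did not overlap at 7 members (16.3%), against 7.78% of all features and 9.84% of the top 10%. The ATF4 mKO mice were all lower at 6 members (14.0%, against 3.89% of all features), namely Psmg2, Psmd5, Psmd9, Pomp, Psma1 and Psmd12. They were all higher at 1 member (2.33%, against 3.89%), Psma7. The 95% interval of the log2 fold change lay within -0.50 to 0.50 for 41 of the 43 members. The same held for 14834 of all 16755 features and for 1600 of the 1676 features in the top 10%. The exceptions among the members were Psma3 (-0.57 to 0.33) and Psmb9 (-0.0099 to 0.57).

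**Figure D1:**
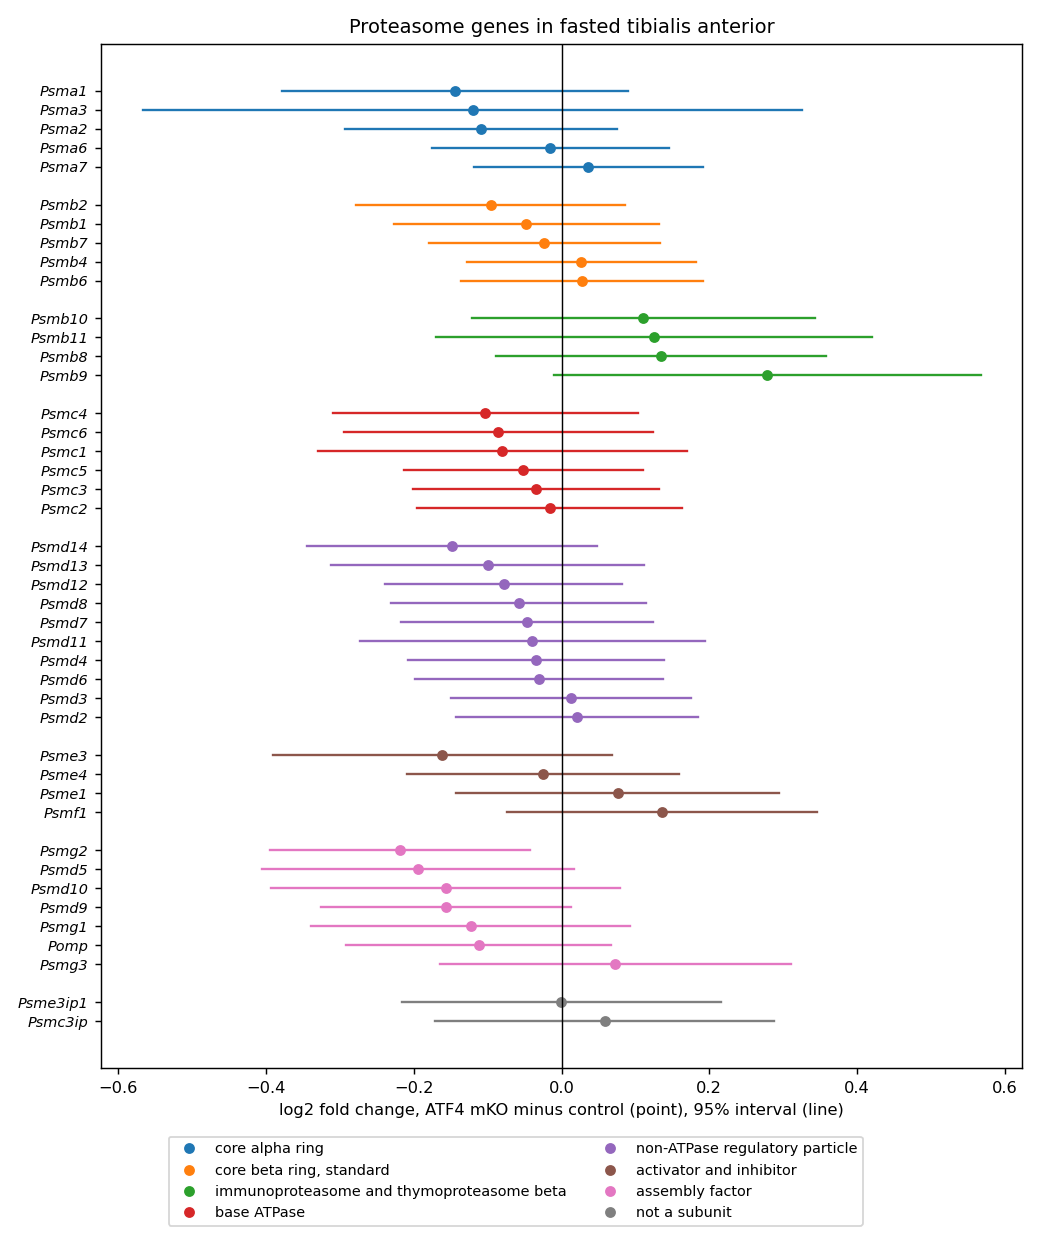
Log2 fold change (ATF4 mKO minus control, horizontal axis) of each of the 43 genes, as a point with its 95% limma interval as a line, grouped and coloured by role. The interval of Psmg2 lies wholly below 0 and that of every other gene includes 0.

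Promoter windows of 300 bases were set beside these values to show where the letters of 2 response elements occur. The windows are from RefSeq, build GRCm38.p6, and run from 250 bases before to 50 bases after the gene start. Of the 43 genes, 36 matched the table. The core of the C/EBP-ATF response element, to which ATF4 binds with a C/EBP partner, was searched as TGATGNAA on both strands. It was found in 1 of 36 genes (2.78%), Psmd13, against 4.51% of all genes with a window. The core of the antioxidant response element, bound by the proteasome regulator NRF1 and by NRF2, was searched as TGACNNNGC on both strands. It was found in 5 of 36 genes (13.9%), Psmb6, Psmc6, Psmd9, Psmd12 and Psme4, against 14.0% of all genes with a window. No member's window held both. The windows shown are those of Psmd13, the member with the ATF4 motif, of Psmd9 and Psmb6, which hold the NRF1 motif near the start, and of Psmb9, the member with the highest fold change, which held neither. They lie at chr7:140882144-140882443 (plus strand), chr5:123227940-123228239 (plus strand), chr11:70525107-70525406 (plus strand) and chr17:34187281-34187580 (minus strand). Each is printed 5′ to 3′ along its gene and capitals mark the motif match.
Psmd13: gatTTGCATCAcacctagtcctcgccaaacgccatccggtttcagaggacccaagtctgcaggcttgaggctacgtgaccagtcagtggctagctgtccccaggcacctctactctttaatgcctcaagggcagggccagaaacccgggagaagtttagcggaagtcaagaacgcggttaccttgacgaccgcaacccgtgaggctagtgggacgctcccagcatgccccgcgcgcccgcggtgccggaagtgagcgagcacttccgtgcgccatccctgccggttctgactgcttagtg
Psmd9: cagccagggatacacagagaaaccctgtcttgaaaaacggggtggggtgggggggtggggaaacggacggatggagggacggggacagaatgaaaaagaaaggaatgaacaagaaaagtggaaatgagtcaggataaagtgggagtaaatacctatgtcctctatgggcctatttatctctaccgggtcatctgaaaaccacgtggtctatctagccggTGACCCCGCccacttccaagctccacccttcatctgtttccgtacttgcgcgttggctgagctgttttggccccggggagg
Psmb6: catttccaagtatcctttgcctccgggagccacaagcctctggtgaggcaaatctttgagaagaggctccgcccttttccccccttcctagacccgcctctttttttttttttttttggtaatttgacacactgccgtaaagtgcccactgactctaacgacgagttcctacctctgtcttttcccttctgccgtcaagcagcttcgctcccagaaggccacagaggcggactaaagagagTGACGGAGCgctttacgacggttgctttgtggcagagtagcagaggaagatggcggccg
Psmb9: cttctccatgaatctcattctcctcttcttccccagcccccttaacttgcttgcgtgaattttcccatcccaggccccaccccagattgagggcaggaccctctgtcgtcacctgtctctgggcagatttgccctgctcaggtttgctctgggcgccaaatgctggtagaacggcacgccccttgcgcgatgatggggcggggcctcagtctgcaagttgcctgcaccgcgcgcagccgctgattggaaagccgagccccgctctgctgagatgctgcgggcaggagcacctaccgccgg

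The ATF4 motif of Psmd13 lies on the strand opposite to the gene, and its first printed base is 247 bases before the start. Psmd13 encodes a structural subunit of the regulatory particle lid. It read 7.86, 8.02 and 7.72 in ATF4 mKO mice, against 7.98, 7.96 and 7.96 in controls. The groups overlapped because ATF4 mKO mouse 2 lay above every control. The log2 fold change was -0.10 ± 0.09 (SE), with a 95% interval of -0.31 to 0.11.

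The outer alpha ring was represented by 5 genes, of which 4 had values below control and none passed. Their log2 fold changes ran from -0.14 to 0.036 with a median of -0.11. Psma1 had the smallest p of this ring. It read 9.70, 9.69 and 9.40 in ATF4 mKO mice, against 9.71, 9.70 and 9.82 in controls. ATF4 mKO mouse 3 was far below the rest, while the other 5 mice were close together, and the groups were separate only in the third decimal. The log2 fold change was -0.14 ± 0.10 (SE), and -0.045 without ATF4 mKO mouse 3. Psma7 was the 1 member with all ATF4 mKO values above control, at 10.25, 10.30 and 10.25 in ATF4 mKO mice and 10.23, 10.23 and 10.23 in controls. The gap was small, with a log2 fold change of 0.036 ± 0.067 (SE). Psma6 had -0.015 (95% interval -0.18 to 0.15), and Psma2 had -0.11 (-0.29 to 0.075). The dim feature of Psma3 had -0.12 ± 0.19 (SE), and 0.044 without control mouse 1. The median of the alpha ring moved to -0.022 when control mouse 1 was left out. Leaving out ATF4 mKO mouse 2 gave -0.030, and leaving out ATF4 mKO mouse 3 gave -0.045.

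The standard beta ring had 5 measured genes. Their log2 fold changes ran from -0.096 to 0.028 with a median of -0.023, 3 were below control and none passed. Psmb6 and Psmb7 carry protease sites, the caspase-like and the trypsin-like one. Psmb6 read 10.98, 11.04 and 11.03 in ATF4 mKO mice, against 11.05, 10.96 and 10.96 in controls. Psmb7 read 10.85, 10.89 and 10.86 in ATF4 mKO mice, against 10.91, 10.87 and 10.89 in controls. The groups overlapped at both genes. Their log2 fold changes were 0.028 (95% interval -0.14 to 0.19) and -0.023 (-0.18 to 0.13). Psmb2, a structural subunit of this ring, had the smallest p, with 10.23, 10.21 and 10.06 in ATF4 mKO mice and 10.26, 10.22 and 10.31 in controls. Here too ATF4 mKO mouse 3 was the lowest of the 6, and the log2 fold change was -0.096 ± 0.08 (SE). It was -0.043 when that mouse was left out. The other structural subunits Psmb1 and Psmb4 had -0.048 and 0.027.

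The immunoproteasome is a variant core in which interferon-induced subunits replace the standard protease subunits, and it is best known from leukocytes and antigen presentation. Its 3 genes, Psmb8, Psmb9 and Psmb10, had values above control, and none passed. Psmb9 encodes the counterpart of Psmb6. It read 7.18, 7.29 and 7.24 in ATF4 mKO mice, against 7.22, 6.93 and 6.73 in controls. The ATF4 mKO mice were close together and the controls were spread, with control mouse 1 inside the ATF4 mKO range. The difference was 0.28 ± 0.12 (SE) on the log2 scale, which is 121% of control, with an unadjusted p of 0.0565 and an adjusted p of 1 in limma. It was 0.16 without control mouse 3 and 0.41 without control mouse 1. The unadjusted limma p of Psmb9 was then 0.176 and 0.00443, and neither passed after adjustment. With features under the median level removed that p was 0.0454, and without moderation it was 0.128.

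Psmb8, the counterpart of Psmb5, read 6.67, 6.74 and 6.50 in ATF4 mKO mice, against 6.43, 6.45 and 6.64 in controls. Psmb10, the counterpart of Psmb7, read 6.38, 6.51 and 6.43 in ATF4 mKO mice, against 6.23, 6.24 and 6.53 in controls. At both genes control mouse 3 was the highest control and lay within or above the ATF4 mKO range. At Psmb9 the same mouse was the lowest of all. The log2 fold changes were 0.14 ± 0.10 (SE) for Psmb8 and 0.11 ± 0.10 (SE) for Psmb10. With 1 mouse left out, Psmb8 lay between 0.084 (ATF4 mKO mouse 2) and 0.20 (ATF4 mKO mouse 3), and Psmb10 between 0.060 (control mouse 1) and 0.21 (control mouse 3). The thymus subunit Psmb11 had 0.13 ± 0.13 (SE), from 4.85, 4.80 and 4.93 in ATF4 mKO mice against 4.44, 4.86 and 4.90 in controls. It changed sign, to -0.019, without control mouse 1.

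**Figure D2:**
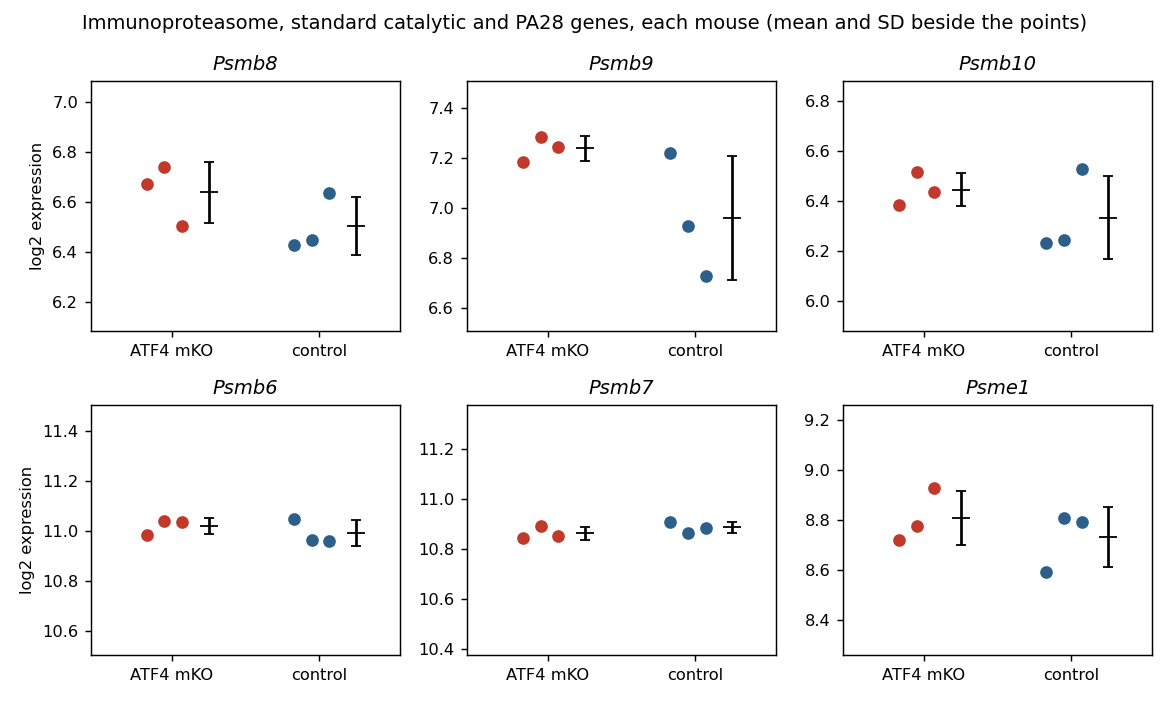
Log2 expression of Psmb8, Psmb9, Psmb10, Psmb6, Psmb7 and Psme1 in each mouse (mice 1 to 3 from left to right), with the group mean and SD beside the points; every vertical axis spans 1 log2 unit. The groups overlap at all 6 genes, and Psmb9 has the widest spread among controls.

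Genes of antigen processing and interferon response that act with the immunoproteasome were examined as a list. Of 16 listed genes 11 were measured and none passed. Values lay above control for 10 and below for 1 (9.09%), against 49.4% of all features below. Of the 10, Irf8, Tapbp, Erap1 and Ifngr1 had log2 fold changes of only 0.0013 to 0.012. The median log2 fold change was 0.057, against 0.0013 for all features. Tap1, a subunit of the peptide transporter and the immediate neighbour of Psmb9 on the chromosome, read 6.07, 6.13 and 6.18 in ATF4 mKO mice, against 5.81, 6.06 and 5.97 in controls. B2m, the light chain of class I molecules, read 11.07, 11.20 and 11.21 in ATF4 mKO mice, against 11.00, 10.96 and 11.00 in controls. The groups did not overlap at either gene, and the log2 fold changes were 0.18 ± 0.09 (SE) and 0.17 ± 0.07 (SE), each with an adjusted p of 1 in limma. Tap2, the partner subunit of that transporter, had -0.081 ± 0.08 (SE). Gbp2, an interferon-induced GTPase, had 0.20 ± 0.14 (SE). Cd74, the invariant chain of class II molecules, had 0.30 ± 0.11 (SE), and its groups did not overlap either. All ATF4 mKO mice were thus higher at 3 of 11 genes (27.3%), against 3.89% of all features.

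Most leukocyte markers had values above control too, and Cd74 is on both lists. Of 12 listed markers 11 were measured and 9 had values above control. Cd79a (-0.16) and C1qa (-0.038) lay below, which is 18.2%, against 49.4% of all features. The median log2 fold change was 0.14, against 0.0013 for all features. Cd74 and H2-Aa had unadjusted p-values of 0.0272 and 0.0475 in limma, and none passed. In lists for other cell types, values above control were found for 5 of 6 fibroblast, 4 of 6 endothelial and 3 of 4 smooth muscle genes. The same held for 5 of 5 muscle fibre, 2 of 2 erythroid, 2 of 4 satellite cell and 0 of 3 adipocyte genes. The mean level of the leukocyte list lay between 6.05 and 6.11 in ATF4 mKO mice, against 5.83 to 6.06 in controls. Control mouse 3, the lowest for Psmb9, was also the lowest for this list. That was not particular to leukocyte markers. The same mouse was the lowest for the erythroid list (mean level 5.98) and the satellite cell list (5.43), and the highest for the smooth muscle list (6.91). For the defining marker Ptprc the log2 fold change was 0.14, and its 95% interval of -0.36 to 0.65 was wide. The part of leukocyte RNA in the Psmb9 values was not tested. Over Psmb8, Psmb9 and Psmb10 together, the mean level was 6.75, 6.85 and 6.73 in ATF4 mKO mice, against 6.63, 6.54 and 6.63 in controls.

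The base of the regulatory particle is a ring of ATPases, Psmc1 to Psmc6. All 6 genes were measured, all 6 had values below control and none passed. The log2 fold changes ran from -0.10 to -0.016 with a median of -0.066. Psmc4 had the smallest p, with 9.14, 9.25 and 8.98 in ATF4 mKO mice and 9.22, 9.18 and 9.28 in controls. ATF4 mKO mouse 3 was lowest and ATF4 mKO mouse 2 lay among the controls. On the log2 scale Psmc4 differed by -0.10 ± 0.09 (SE), and -0.033 without ATF4 mKO mouse 3. The other ATPases, Psmc1, Psmc2, Psmc3, Psmc5 and Psmc6, lay between -0.085 and -0.016 on that scale. Psmc6, whose window holds the NRF1 motif, read 9.35, 9.33 and 9.10 in ATF4 mKO mice, against 9.29, 9.37 and 9.37 in controls. ATF4 mKO mouse 3 was again lowest and the groups overlapped. The mean level over the 6 ATPases was 9.46, 9.48 and 9.33 in ATF4 mKO mice, against 9.48, 9.45 and 9.52 in controls. ATF4 mKO mice 1 and 2 lay within the range of the controls, and the median of the 6 genes was -0.020 without ATF4 mKO mouse 3. Psmc1 and Psmc2 then had values above control, at 0.016 and 0.0033.

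Of the non-ATPase subunits, 10 were measured, 8 had values below control and none passed. The log2 fold changes ran from -0.15 to 0.021 with a median of -0.043. Dropping ATF4 mKO mouse 1 put that median at -0.067, dropping ATF4 mKO mouse 3 at -0.022, and dropping control mouse 3 at -0.018. Psmd14, the deubiquitinase that removes ubiquitin chains as the substrate enters, had the smallest p of this group. It read 9.59, 9.47 and 9.36 in ATF4 mKO mice, against 9.56, 9.65 and 9.64 in controls. ATF4 mKO mouse 1 lay within the range of the controls and the other 2 ATF4 mKO mice lay below it. The log2 fold change was -0.15 ± 0.08 (SE) and ran from -0.21 to -0.092 without 1 mouse. The groups did not overlap at 1 of the 10 genes, against 7.78% of all features and 9.84% of the top 10% by level. That gene was Psmd12, a lid subunit, at 10.54, 10.53 and 10.46 in ATF4 mKO mice and 10.60, 10.57 and 10.61 in controls. Its log2 fold change was -0.078 ± 0.07 (SE). The ubiquitin receptor Psmd4 had -0.035 (95% interval -0.21 to 0.14), and the scaffold subunit Psmd2 had 0.021 (-0.14 to 0.18). The remaining genes, Psmd3, Psmd6, Psmd7, Psmd8 and Psmd11, which are structural subunits, lay between -0.058 and 0.013 on the log2 fold change scale. The mean level of the 10 genes was 9.31, 9.32 and 9.22 in ATF4 mKO mice, against 9.31, 9.33 and 9.38 in controls, with ATF4 mKO mouse 3 again the lowest.

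Assembly factors build the particle and are absent from its finished form. Of the 7 measured genes, 6 had values below control. The median log2 fold change was -0.16, or 89.7% of control, against -0.040 for all 43 members. None passed over all features. The groups did not overlap at 4 of 7 genes, with all ATF4 mKO mice lower, against 3.89% of all features. Psmg2, with Psmg1, forms a heterodimer that scaffolds the alpha ring. It read 6.89, 6.75 and 6.75 in ATF4 mKO mice, against 7.06, 6.99 and 7.00 in controls. The highest ATF4 mKO mouse was still lower than the lowest control. The difference for Psmg2 was -0.22 ± 0.08 (SE) on the log2 scale, which is 85.9% of control, with an unadjusted p of 0.0215 and an adjusted p of 1 in limma. The unadjusted p of Psmg2 reached 0.0626 when ATF4 mKO mouse 2 was dropped, 0.0637 when it was ATF4 mKO mouse 3, and 0.0635 when it was control mouse 1, by the same limma test. For Psmg2 alone, the exact permutation test (two-sided) over the mice gave p = 0.10, which is the lowest p that groups of 3 can reach. Psmg2 was picked for its smallest limma p and its groups do not overlap, so this value was fixed and adds no support.

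Psmd5 and Psmd9 encode chaperones that hold ATPases of the base before it is complete. Psmd5 read 6.41, 6.52 and 6.27 in ATF4 mKO mice, against 6.67, 6.53 and 6.58 in controls. The highest ATF4 mKO mouse was just below the lowest control. Psmd9 read 6.13, 6.12 and 6.14 in ATF4 mKO mice, against 6.22, 6.28 and 6.37 in controls. The ATF4 mKO mice were nearly equal and all below the controls. The log2 fold change was -0.19 ± 0.09 (SE) for Psmd5 and -0.16 ± 0.07 (SE) for Psmd9, with unadjusted p-values of 0.0660 and 0.0663.

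Pomp, the maturation factor on which the beta ring is built, read 10.84, 10.86 and 10.88 in ATF4 mKO mice, against 11.08, 10.94 and 10.90 in controls. The groups did not overlap, though control mouse 3 came close to the ATF4 mKO mice. The log2 fold change was -0.11 ± 0.08 (SE) and was -0.060 without control mouse 1. Psmd10, the base chaperone gankyrin, had -0.16 ± 0.10 (SE), and Psmg1 had -0.12 ± 0.09 (SE). The groups overlapped at both. Psmg3, an alpha ring chaperone below the median level of all features, had 0.073 ± 0.10 (SE).

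The mean level of the 7 assembly factors was 7.37, 7.39 and 7.35 in ATF4 mKO mice, against 7.53, 7.43 and 7.52 in controls. All ATF4 mKO mice thus lay below all controls, and here ATF4 mKO mouse 3 was close to the other 2. The median of the group ran from -0.20 without control mouse 2 to -0.10 without control mouse 1.

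**Figure D3:**
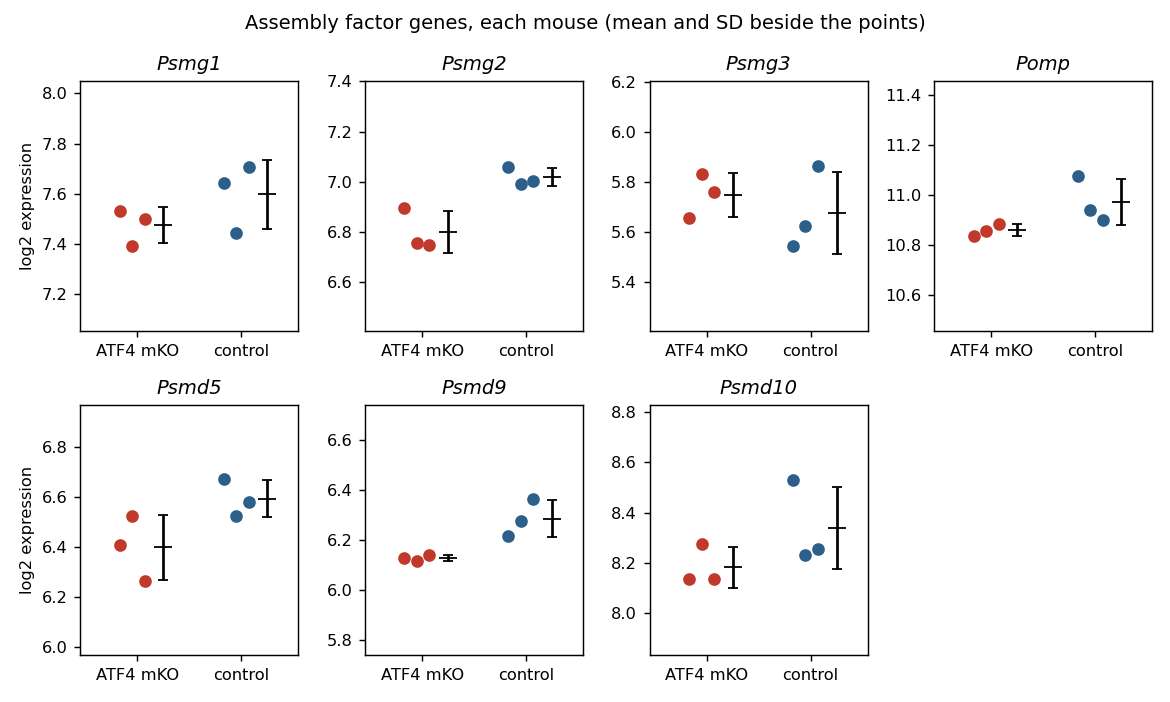
Log2 expression of the 7 assembly factor genes in each mouse (mice 1 to 3 from left to right), with the group mean and SD beside the points; every vertical axis spans 1 log2 unit. The ATF4 mKO and control points are separate for Psmg2, Pomp, Psmd5 and Psmd9 and overlap for Psmg1, Psmg3 and Psmd10.

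Activators open the core without the ATPase base, and Psmf1 binds the core and inhibits it in vitro. Of these 4 genes, 2 had values below control and 2 above, none passed, and the median log2 fold change was 0.025. Psme3, the nuclear activator PA28 gamma, read 8.58, 8.40 and 8.23 in ATF4 mKO mice, against 8.59, 8.53 and 8.58 in controls. ATF4 mKO mouse 1 was level with the controls and the other 2 were below them. The log2 fold change of Psme3 was -0.16 ± 0.10 (SE), and -0.076 without ATF4 mKO mouse 3. Psmf1 read 6.17, 6.12 and 6.29 in ATF4 mKO mice, against 6.13, 5.92 and 6.12 in controls. Its log2 fold change was 0.14 ± 0.09 (SE), and 0.068 without control mouse 2. Psme1, the interferon-induced activator subunit PA28 alpha, had 0.076 (95% interval -0.14 to 0.29). Psme4, which encodes the activator PA200 and holds the NRF1 motif, read 9.66, 9.63 and 9.49 in ATF4 mKO mice, against 9.58, 9.60 and 9.68 in controls. The groups overlapped, with a log2 fold change of -0.025 (-0.21 to 0.16) that was 0.026 without ATF4 mKO mouse 3.

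The naming rule also found 2 genes that encode no part of the proteasome. Psmc3ip is a meiotic recombination factor named for binding an ATPase subunit, and Psme3ip1 is a protein that binds the nuclear activator. Psmc3ip read 6.17, 6.03 and 6.21 in ATF4 mKO mice, against 6.17, 6.17 and 5.91 in controls. Its log2 fold change was 0.058 ± 0.10 (SE). Psme3ip1 had -0.0006 (95% interval -0.22 to 0.22).

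**Figure D4:**
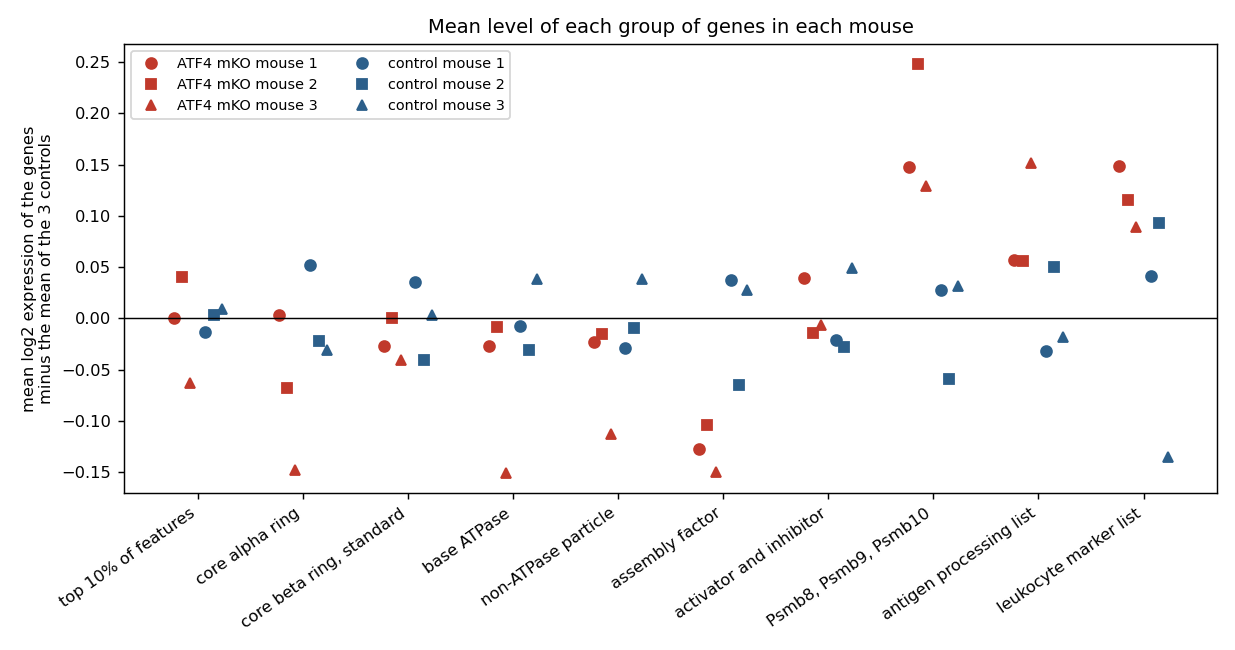
Mean log2 expression of each group of genes in each mouse, minus the mean of the 3 controls (vertical axis), for the top 10% of features by level, the proteasome groups, the antigen processing list and the leukocyte marker list. ATF4 mKO mouse 3 is lowest for the top 10% of features, the alpha ring and both groups of the regulatory particle, while for the assembly factors all 3 ATF4 mKO mice lie below all controls.

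Partners of the proteasome showed no shift past the threshold. Of 24 listed genes 18 were measured, 10 had values below control and none passed; their median log2 fold change was -0.013. Usp14, a deubiquitinase that docks on the regulatory particle, had 8.43, 8.42 and 8.18 in ATF4 mKO mice, against 8.48, 8.47 and 8.61 in controls. The groups did not overlap, and the log2 fold change was -0.18 ± 0.10 (SE). Nfe2l1 encodes NRF1, the transcription factor that raises proteasome genes when degradation is impaired. It had 0.039 with a 95% interval of -0.12 to 0.20. Nfe2l2, which encodes NRF2, had -0.11 (-0.28 to 0.055). The groups did not overlap at Nfe2l1 and Nfe2l2 either, with all ATF4 mKO mice higher at Nfe2l1 and lower at Nfe2l2. With Usp14, 3 of 18 genes (16.7%) were without overlap, against 7.78% of all features. The ubiquitin ligase Ube3a had -0.099 ± 0.09 (SE), and Ngly1, an enzyme that processes NRF1, had -0.087 ± 0.08 (SE). Of 14 listed ubiquitin and conjugation genes 8 were measured, 5 had values below control and none passed, with a median of -0.032. In that list the conjugating enzyme Ube2n had 0.20 ± 0.12 (SE) and Uba3, part of the NEDD8-activating enzyme, had -0.12 ± 0.15 (SE). The conjugating enzymes Ube2b and Ube2g1 had -0.049 and -0.070.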

How the data were processed

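The deposited table holds log2 expression values of 16755 array features in 6 muscles. Per the submitters' processing notes, the authors used GCOS and RMA with build mm9 (versions not given in the sources used here). The log2 scale was read from the values, which ran from 1.63 to 13.0. Per the labels' protocols, RNA was amplified from total RNA and labelled with biotin. RMA quantile-normalises arrays and compresses small signals. The deposited arrays still differed in median (5.84 to 5.91) and in SD over features (1.53 to 1.58). Features were named from the platform annotation: 14996 had 1 symbol, 1019 several and 740 none.

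ATF4 mKO was compared with control over all features with limma 3.58.1 in R 4.3.3 (lmFit, eBayes, group as the only term), with p-values adjusted by Benjamini-Hochberg. Errors on fold changes are moderated standard errors and intervals are at 95%. Members of a gene group were described by counts and medians, with no set test. The members, roles and lists were chosen with earlier results of these data known. Values in every mouse are given for the measured protease subunits, Psmd14, Pomp, Psmf1, the 5 smallest p-values in each direction and the smallest in each role group; other members are added where the groups did not overlap or a motif was found. Lists name up to 4 members by p. Tap2, Nfe2l1 and Ptprc were added after their values were seen. Irf8, Tapbp, Erap1, Ifngr1, Cd79a and C1qa were also named outside that rule, for fold changes that were near 0 or below control. The fit was tested on simulated data. The number of arrays limits the precision. Marker lists for other cell types were also counted: values above control were found for 4 of 6 endothelial, 5 of 6 fibroblast, 2 of 4 satellite cell, 3 of 4 smooth muscle, 0 of 3 adipocyte, 2 of 2 erythroid, 2 of 3 Schwann cell and 5 of 5 muscle fibre genes, and none passed. The alternatives tried were a block for the replicate number, other normalisations, filters, moderation, weights, thresholds, member choices and leaving out each mouse.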

Additional observations from a re-analysis of the deposited data

How the results depend on the processing

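In limma, 0 members passed the threshold under all 18 alternatives, the lowest adjusted p being 0.979. The level filters and the removal of genes that encode no subunit left 40 or 41 of the 43 members. Taking the mean of all features of a gene changed nothing, since each member has 1 feature. At an unadjusted p under 0.05 there was 1 member in the main limma fit. The count was 0 without ATF4 mKO mouse 3. It was 3 with quantile normalisation, with features under the median level removed or without moderation. The count of members below control, 30, lay between 24 and 31 when 1 mouse was left out, the ends being ATF4 mKO mouse 3 and ATF4 mKO mouse 2. The median log2 fold change of the members was -0.059 when ATF4 mKO mouse 1 was left out and -0.019 when ATF4 mKO mouse 3 was left out, the lowest and highest; that of the top 10% of features was then -0.0086 and 0.019. With the replicate number as a block 0 members passed. Each number holds 1 mouse of each group, so the block cannot change a fold change and the median of -0.040 was fixed. The deviations of same-numbered mice correlated at -0.0021, 0.069 and 0.14. The labels do not say whether these mice were paired, and these values cannot settle it. Without 1 mouse, the medians ran from -0.12 to -0.022 for the alpha ring, -0.038 to -0.0006 for the standard beta ring, -0.090 to -0.020 for the base ATPases, -0.067 to -0.018 for the non-ATPase subunits, -0.20 to -0.10 for assembly factors, 0.078 to 0.20 for the immunoproteasome and thymoproteasome genes and -0.020 to 0.055 for activators and inhibitor. With array weights the alpha ring median was -0.043 and the non-ATPase median -0.022; the cause was not tested. Psmb11 ran from -0.019 to 0.21 and Psmc3ip from -0.028 to 0.11 without 1 mouse; no other member of the 17 whose log2 fold change was followed through every alternative changed sign. Of the other 26 members, 11 changed sign without 1 mouse or with array weights, namely Psma3, Psma6, Psmc1, Psmc2, Psmd2, Psmd3, Psmd4, Psmd6, Psmd11, Psme4 and Psme3ip1. Their log2 fold changes lay between -0.12 and 0.021 with all mice. Small signal limits Psma3, Psmb11 and Psmg3.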
